A study of Mus musculus with 12 samples.

Results

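RbFox1 was mapped on the RNA of a human cell line by eCLIP, and chromosome 19 (chr19) held 1183 of the 24831 human eCLIP peaks, 4.76% of the list. The members described here are all peaks that the deposited list places on chr19 of hg38, on both strands, and no measured value was used to choose them. In eCLIP, RNA is fixed to its bound proteins by ultraviolet light, the protein of interest is immunoprecipitated and the attached RNA pieces are sequenced. The cells were line 77-5, a single clone of T-REx-293 cells, which derive from human HEK293 embryonic kidney cells, carrying a mouse TrkB-BAC minigene in its WT form and an RbFox1 gene that doxycycline switches on. The list compares 2 immunoprecipitated libraries from cells given doxycycline for 48 h (+Dox) with 2 from the same clone without doxycycline (No Dox). The labels give the dose as 0.5 mg/ml and the legends as 0.5 μg/ml. Both sides carry the minigene, so they differ in doxycycline and in the RbFox1 it induces, which cannot be told apart in this design. The labels name mouse, the species of the minigene, as the organism, while the peaks described here lie on human transcripts.

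RbFox1 is a splicing regulator that binds (U)GCAUG in pre-mRNA, largely within introns, and that changes the inclusion of neighbouring exons. Human chr19 is known as a gene-dense chromosome with a high share of zinc finger genes, which encode DNA-binding repressors, many of them directed against transposable elements. These genes stand in tandem arrays of related copies, among them an array beside the centromere and another at the end of the long arm. The array beside the centromere is described here as the region from position 19500000 to 24500000 (pericentromeric region) and the array at the chromosome end as the region from 52000000 to 58600000 (terminal region). Gene density and gene names were not analysed here, so peaks are named by position. Whether a peak of either region, or of the rest of chr19, lies in a zinc finger gene was not examined.

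Each peak has 1 log2 fold enrichment of +Dox over No Dox and 1 −log10 p, both computed by the authors after merging the replicates. Values of single libraries and read counts were not analysed here, which leaves depth unknown and gives no spread over the 2 replicates of a group. Neighbouring peaks often share one transcript and are not replicates, so chr19 and the other chromosomes are compared below as descriptions, without a test. The lowest log2 fold enrichment in the whole list is 3.0 and the lowest −log10 p is also 3.0, so weaker sites are outside it.

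Peaks were dense on chr19, of high −log10 p, and slightly less enriched than elsewhere. Over a span of 58.1 Mb from its first to its last peak, chr19 had 20.3 peaks per Mb, the second highest density of 23 chromosomes. The other 22 ranged from 4.56 on chrX to 28.3 on chr22, with a median of 8.08. The density of the next chromosome in the order, chr17, was 16.9. Transcript levels were not analysed here, so more binding and more RNA to bind cannot be told apart in these densities. The median log2 fold enrichment on chr19 was 3.63 (quartiles 3.30 and 4.16), a 12.4-fold enrichment, against 3.68 (quartiles 3.33 and 4.14) on all other chromosomes. It ranked 21 of 23, above chr7 and chr22 only. The upper quartile of chr19 was not lower than elsewhere, while a larger part of its peaks sat near the lower limit of the list. Of the chr19 peaks, 488 (41.3%) had a log2 fold enrichment below 3.5, against 37.3% elsewhere, and 56 (4.73%) reached 5, against 4.30% elsewhere. This profile was not particular to chr19. Chr22, the only denser chromosome, had a median log2 fold enrichment of 3.60 and a median −log10 p of 14.5. Of its peaks, 42.1% had a log2 fold enrichment below 3.5.

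**Figure D1:**
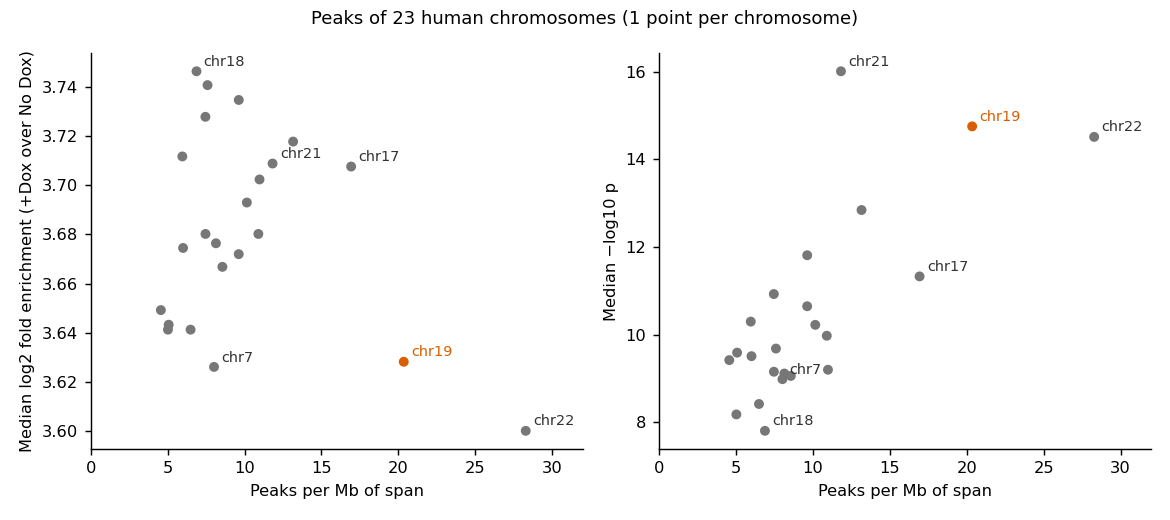
Density of peaks (x axis, peaks per Mb between the first and the last peak of a chromosome) against the median log2 fold enrichment (left) and the median −log10 p (right), with 1 point for each of 23 human chromosomes. Chr19 combines a density of 20.3 with a median log2 fold enrichment of 3.63 and a median −log10 p of 14.7.

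The −log10 p had the opposite order. Its median was 14.7 on chr19 (quartiles 7.80 and 31.2) and 10.0 on the other chromosomes (quartiles 5.87 and 18.7), and chr19 ranked second after chr21, at 16.0. The list stops at a −log10 p of 400, a value carried by 59 chr19 peaks (4.99%) and by 1.91% of the peaks elsewhere. On the other chromosomes this share ran from 0% on chr18 to 7.01% on chr9. It was 5.01% on chr20, 4.87% on chrX and 4.69% on chr21. The −log10 p rises with reads as well as with enrichment, so peaks were also set side by side within 4 equal classes of the list ordered by −log10 p. In the lowest class the median log2 fold enrichment was 3.49 on chr19 and 3.48 elsewhere. In the next 2 classes it was 3.51 against 3.60 and 3.69 against 3.78. In the highest class, below the maximum, it was 3.81 against 3.96, and at the maximum 3.92 against 4.03. At a similar −log10 p the chr19 median was therefore lower in every class but the lowest.

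A stricter threshold, with log2 fold enrichments from 4 upward and p-values no higher than 1e-05, left 349 chr19 peaks. These were 29.5% of its peaks, beside 29.0% of the whole list, so the share of strong peaks on chr19 was near the background. The other chromosomes ranged from 24.3% on chr7 to 33.7% on chr16. The chr19 peaks had a median of 77 nt in width, with quartiles of 54 and 105 nt, against 82 nt elsewhere, and together covered 96130 nt. The median width on chr22 was also 77 nt.

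Along the chromosome the peaks were uneven. Of 59 windows of 1 Mb, 51 held at least 1 peak, with a median of 20 peaks per occupied window. The 5 fullest windows held 260 peaks (22.0%) and the 10 fullest 485 (41.0%). The fullest began at 5 Mb, with 56 peaks in 18 groups, followed by those at 47 Mb with 53, at 38 Mb and 40 Mb with 51 each and at 37 Mb with 49. These 5 windows lie on both arms and outside the pericentromeric and terminal regions. Whether they hold zinc finger genes of other arrays was not examined. The windows without a peak were those starting at 6, 21, 22, 25, 26, 27, 31 and 54 Mb, 8 in all, of which those at 21, 22 and 54 Mb belong to the zinc finger regions. The longest stretch without a peak, 4.42 Mb from 24054320 to 28472176, spans the centromere. The next was 3.53 Mb from 20017369 to 23543500, inside the pericentromeric region, and the third 1.82 Mb from 30656561 to 32472391. In windows of 5 Mb the counts ran from 31 peaks at 50 to 55 Mb to 167 at 35 to 40 Mb.

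**Figure D2:**
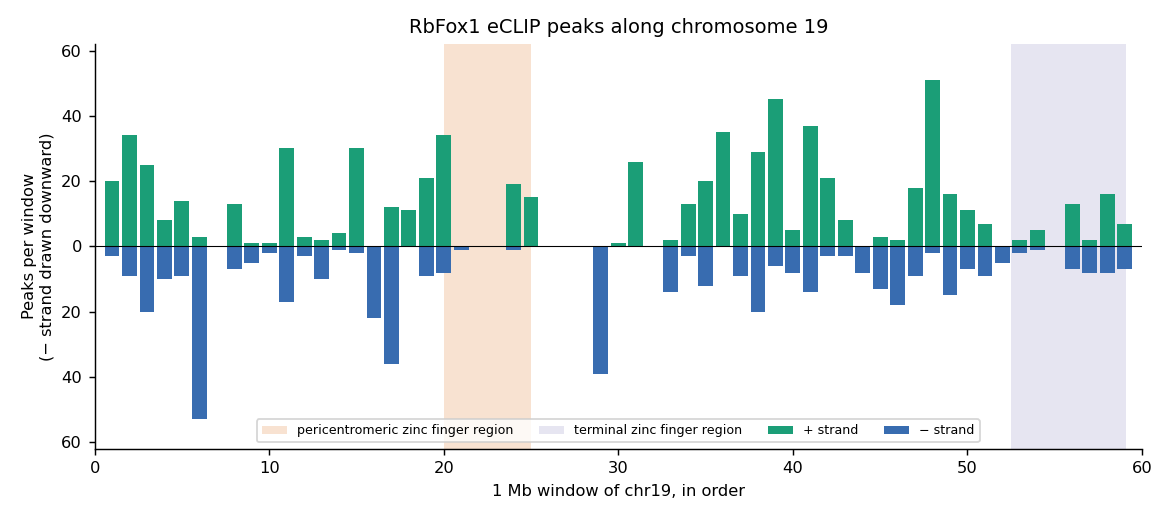
Number of eCLIP peaks in each of 59 windows of 1 Mb along chr19 (x axis, windows in order), with + strand peaks drawn upward and − strand peaks downward, and both zinc finger regions shaded. Both shaded regions hold windows with few or no peaks, and the fullest window, with 56 peaks, lies on the short arm.

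Enrichment also varied between windows. Among the 41 windows with at least 10 peaks, the median log2 fold enrichment ran from 3.25 in the window at 39 Mb to 4.58 in that at 23 Mb. Of the 20 peaks in the latter, which lay in 3 groups, 16 passed the stricter threshold, against 0 of 13 at 39 Mb. These windows were picked by their enrichment, so the counts follow in part from that choice. The fullest window, at 5 Mb, had a median of 3.73, and the full window at 10 Mb, with 47 peaks, had 3.37.

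The + strand carried 705 chr19 peaks and the − strand 478. The + strand share, 59.6%, compares with 52.9% on all other chromosomes, where single chromosomes ran from 42.7% on chrX to 66.7% on chr21. Peaks on the + strand had a median log2 fold enrichment of 3.65 and those on the − strand of 3.60. Most of the strongest values lay on the + strand, which held 46 of the 56 peaks at or above 5 on the log2 scale and 45 of the 59 peaks at the highest −log10 p. These 56 and 59 peaks came from only 22 and 21 groups of neighbouring peaks. Their strand shares on other chromosomes were not computed. Many single windows leaned to one strand more than the chromosome as a whole. Neighbouring peaks often share one transcript and thus one strand, so a window with few transcripts leans for that reason alone. Strand shares of windows on other chromosomes were not computed. Of the 41 windows with at least 10 peaks, 12 had at least 80% of them on the + strand and 8 at least 80% on the − strand. The window at 5 Mb had 53 of 56 peaks on the − strand and the window at 47 Mb 51 of 53 on the + strand. The window at 28 Mb had all 39 on the − strand and the window at 35 Mb all 35 on the + strand. In groups as defined below, these 4 windows held 18, 12, 8 and 9. eCLIP keeps the strand of the RNA, so each of these windows was read mainly from transcripts of one direction.

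Peaks on the same strand with at most 500 nt between them were taken as 1 group. The 1183 chr19 peaks formed 404 groups, or 2.93 peaks per group against 2.52 elsewhere, and chr19 was again second, after chr21 at 3.01. Single peaks made up 169 groups, groups of 2 or 3 peaks 121 and groups of at least 4 peaks 114. The groups of at least 4 held 729 peaks, 61.6% of those on chr19, against 51.7% elsewhere, with a range from 40.6% on chr13 to 66.3% on chr21. Groups were also dense on chr19, at 6.95 per Mb, second after chr22 at 10.0. The median of the other 22 chromosomes was 3.39. The median distance between neighbouring groups of one strand was still similar, 67.5 kb on chr19 and 65.3 kb elsewhere. At most 10 kb were 27.6% of the distances on chr19 and 27.4% elsewhere. A median says little of the longest distances, so it need not follow the groups per Mb. With each group counted once, the + strand share was 57.4% on chr19 and 52.4% elsewhere. On single other chromosomes it ran from 44.8% on chrX to 62.6% on chr21. The chr19 share of the list was then 4.13%.

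Larger groups were more enriched on chr19. The median of the group medians was 3.42 for single peaks, 3.51 for groups of 2 or 3 and 3.78 for groups of at least 4, and the same order held elsewhere, with 3.45, 3.60 and 3.80. No single peak reached a log2 fold enrichment of 5, the highest being 4.66 at 47299024 to 47299130 on the + strand. The 56 peaks of at least 5 lay in 22 groups. Within groups of at least 4 peaks the lowest and the highest peak differed by a median of 1.04 on the log2 scale, against 1.10 elsewhere. Over the chr19 groups this difference ranged from 0.31 to 2.17. In 27 of the 114 groups every peak was at 3.5 or above, against 547 of 2024 such groups elsewhere. The highest peak lay in the 5′ part of the group, taken as the first of 3 equal parts, in 39 groups (34.2%). It lay in the middle part in 33 (28.9%) and in the 3′ part in 42 (36.8%), so it had no common place. The shares elsewhere were 34.7%, 31.0% and 34.3%.

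**Figure D3:**
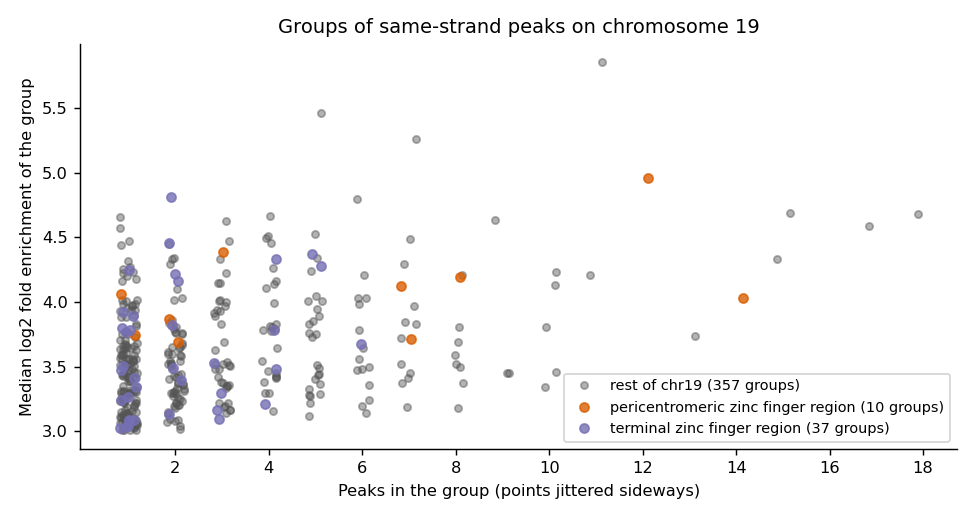
Number of peaks in each of the 404 chr19 groups (x axis) against the median log2 fold enrichment of the group (y axis), coloured by region. The group of 11 peaks at 5.85 stands highest, and 2 groups of the pericentromeric region are among those with at least 10 peaks.

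The 10 groups with the most peaks held 136 peaks (11.5%), with the tenth place shared by 5 groups of 10 peaks. All 14 groups of at least 10 peaks were 547 to 1378 nt long. The first, on the + strand from 47176121 to 47177039, had 18 peaks in 919 nt, of which the peaks cover 92.7%, with 14 groups of the whole list holding more. Its log2 fold enrichment ran from 3.56 to 5.15 with a median of 4.68, or 25.6-fold, and 7 of its peaks reached a −log10 p of 400. Apart from a dip to 3.97 at the fourth peak, the values stayed at 4.20 or above up to the final pair of peaks, 3.64 and 3.56, at the 3′ end. The next, on the − strand from 5232208 to 5233585, was the longest on chr19, with 17 peaks, a median of 4.59 and the highest peak at 5.57. None of its peaks reached 400, and its highest −log10 p was 58.1. Enrichment in this group went up and down along its length, with its most 3′ peak again the lowest.

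A pair of groups had 15 peaks each. That on the − strand from 16374701 to 16375500 had a median of 4.33, and its peaks cover 99.4% of its 800 nt, the highest share among the 14 groups with at least 10 peaks. That on the + strand from 48624874 to 48625852 rose from 3.11 at its 5′ end to 5.29, with a median of 4.69 and 5 peaks at 400. The difference of 2.17 within this group was the largest of any chr19 group of at least 4 peaks. The group of 11 peaks on the − strand from 28580707 to 28581581 had a median of 4.21, and the 5 groups of 10 peaks had medians from 3.34 to 4.23. Other groups with many peaks were less enriched. The group of 13 peaks on the + strand from 1424019 to 1424781 had a median of 3.74 and no peak above 4.29, yet 9 of its peaks were at 400, the most in any chr19 group. Likewise, all 6 peaks of the group on the − strand from 40275232 to 40275586 and all 5 of that from 40274460 to 40274669 were at 400, with medians of 3.78 and 3.44. The 59 peaks at 400 lay in 21 groups and had log2 fold enrichments from 3.02 to 5.99.

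**Figure D4:**
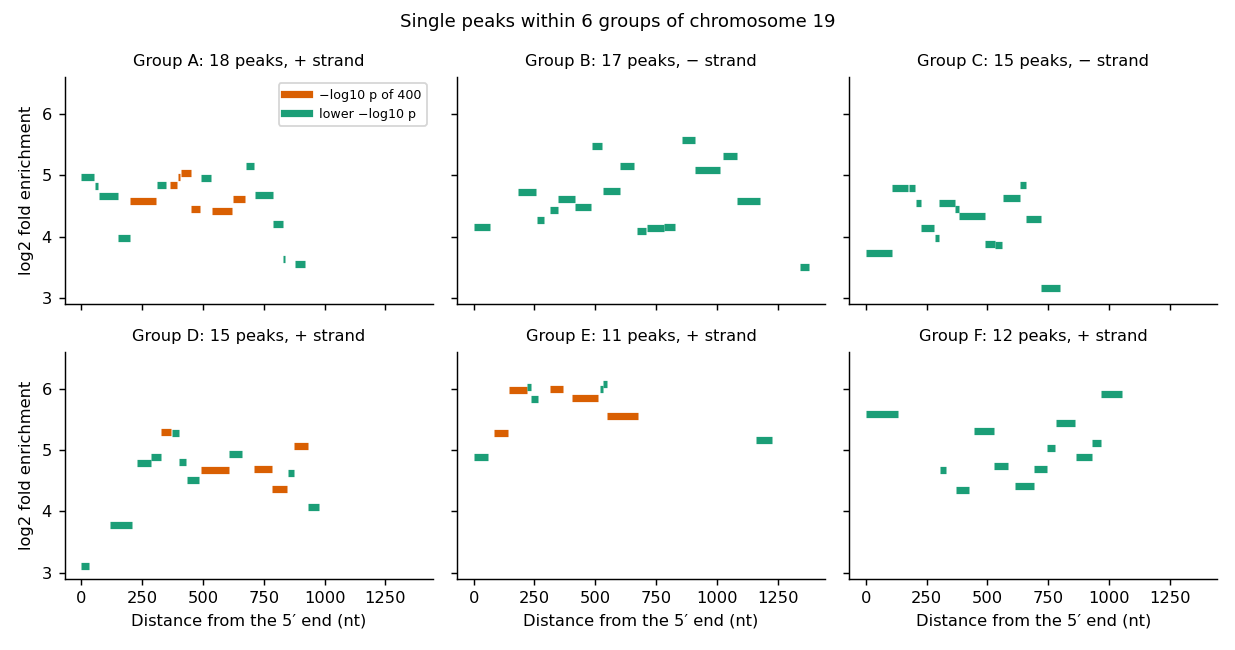
Single peaks within 6 groups of chr19, drawn from the 5′ end of each group in the direction of its strand (x axis, nt) at their log2 fold enrichment (y axis), with bar length showing peak width. A to D are the groups with 18, 17, 15 and 15 peaks described in the text (C on the − strand, D on the + strand), E the group of 11 peaks with the highest median, 5.85, and F the group of 12 peaks in the pericentromeric region.

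The highest enrichment of a whole group belonged to the 11 peaks on the + strand from 40378479 to 40379704. Every peak of this group was at 4.89 or above, with a median of 5.85 and a highest value of 6.07, and 5 peaks were at a −log10 p of 400. Its peaks cover 51.0% of its length, in a block of 10 peaks at the 5′ side and 1 peak of 5.15 beyond it. Of the 10 most enriched chr19 peaks, 6 came from this group. The remaining 4 came from 3 further groups on the + strand. The most enriched chr19 peak, from 46389607 to 46389720, stood at 6.32 on the log2 scale (80.1-fold) and ranked 20 in the whole list. The peak at 16851187 to 16851312 followed with 6.23 and its neighbour at 16851313 to 16851340 had 5.94. The last of the 4, with 5.91, was the peak at 23783934 to 23784019 in the pericentromeric region. All 10 lay on the + strand and in groups of at least 5 peaks, and the group of the top peak had a median of 5.46 over its 5 peaks.

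The pericentromeric region held 57 peaks, 4.82% of the chr19 peaks, in 10 groups. With 11.4 peaks and 2.00 groups per Mb it was sparse beside the rest of chr19, which had 22.5 peaks and 7.67 groups per Mb. Without the peak-free stretch next to the region, the rest had 24.6 peaks and 8.38 groups per Mb. The peak-free stretch of 3.53 Mb inside the region was kept in its length, so these last values do not treat both sides alike. The peaks were uneven within the region. Of the 57, 21 lay below 20 Mb, 1 between 20 and 23 Mb and 35 beyond 23 Mb. The group with the most peaks, 14 on the + strand from 19530523 to 19531357, lies close to the lower border, and whether it belongs to the gene array was not examined. It had log2 fold enrichments from 3.01 to 4.49 with a median of 4.03, and held the region's 3 peaks at a −log10 p of 400.

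Where peaks were present in the pericentromeric region, they were dense and strong. On the log2 scale they had a median enrichment of 4.12 (quartiles 3.71 and 4.54), against 3.60 (quartiles 3.30 and 4.12) on the rest of chr19 and 3.68 on the other chromosomes. The stricter threshold left 36 of 57 peaks, 63.2%, against 28.0% on the rest of chr19. A group had 5.70 peaks on average, against 2.94 on the rest of chr19. All 48 peaks on the + strand lay in 5 groups of 7 to 14 peaks, whereas the 9 peaks on the − strand formed 5 groups of 1 to 3. Since 5 groups supply most of the values, the higher median describes few places. With each group counted once it was 4.05 against 3.51 on the rest of chr19. It was 4.29 without the group at 19530523 and 4.04 without the group at 23782966, the 2 with the most peaks.

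The group at 23782966 to 23784019 was the strongest of the region. Its 12 peaks ran from 4.34 to 5.91 with a median of 4.96, the highest values standing at both ends, 5.59 at the 5′ end and 5.91 at the 3′ end. Its −log10 p stayed between 7.59 and 40.2. A second group, 7 peaks from 23770021 to 23770824 on the same strand, preceded it, with a median of 4.12. A further pair lay at 24051830 to 24052275, with 7 peaks and a median of 3.71, and at 24053657 to 24054320, with 8 peaks and a median of 4.19. The end of this pair was the last peak before the centromere. On the − strand the largest group was that of 3 peaks from 19608469 to 19609187, with a median of 4.39 and a highest value of 5.12. The only peak between 20 and 23 Mb, at 20017294 to 20017369, had 3.75.

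The peaks of the terminal region were spread more widely. It held 78 peaks (6.59% of chr19), 11.8 per Mb, in 37 groups, 5.61 per Mb. Its density was near the 11.4 of the pericentromeric region with the borders used here, but with both borders of each region moved inward by 0.5 Mb it was 11.1 peaks per Mb against 5.25 in the pericentromeric region. Its groups were thus more frequent than those of the pericentromeric region and smaller, with 2.11 peaks on average. Single peaks made up 18 of the 37 groups, and 41.0% of the peaks lay in groups of at least 4, against 61.9% on the rest of chr19. No group had more than 6 peaks. The median log2 fold enrichment was 3.66 (quartiles 3.27 and 4.13), near the 3.60 of the rest of chr19, and the stricter threshold left 20 peaks, 25.6%. The median −log10 p was lower, at 9.10 against 15.0 on the rest of chr19 and 24.4 in the pericentromeric region, and 1 peak was at 400, at 55661943 to 55662132 on the + strand, with a log2 fold enrichment of 4.30. The peaks were wider, with a median of 83 nt against 77 nt on the rest of chr19 and 68 nt in the pericentromeric region.

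Peaks of the terminal region became more frequent toward its distal part. The windows from 52 to 55 Mb held 4, 6 and 0 peaks, and those from 55 Mb on held 20, 10, 24 and 14. The largest group, 6 peaks on the − strand from 56302927 to 56303919, was of moderate enrichment, from 3.25 to 3.92 with a median of 3.68. The groups of 5 peaks were stronger, with a median of 4.28 on the − strand at 57267258 to 57267698 and of 4.37 on the + strand at 57588739 to 57589550. The 4 groups of 4 peaks had medians from 3.21 to 4.34. The highest peak of the region, 5.03 at 55263546 to 55263611 on the − strand, belonged to a pair of peaks and was the only one to reach 5.

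**Figure D5:**
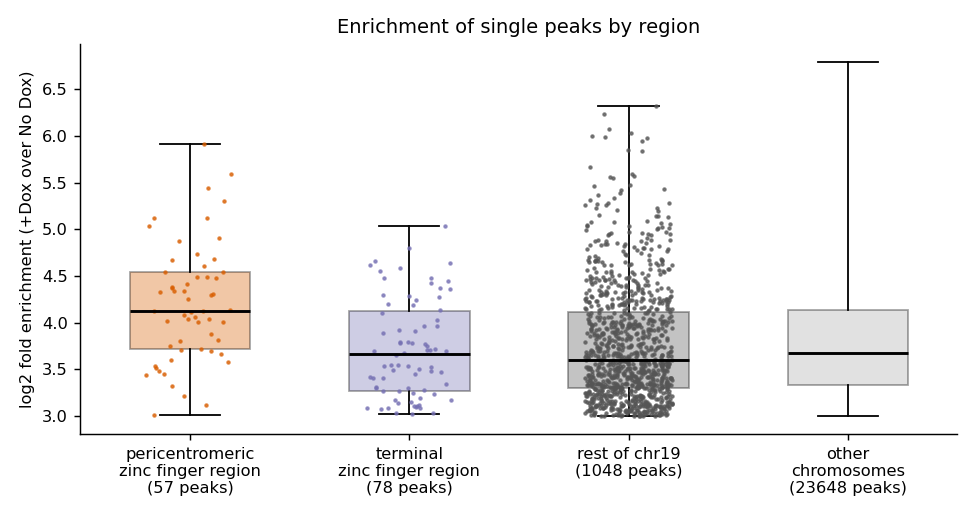
Log2 fold enrichment of single peaks (y axis) in the pericentromeric region, the terminal region, the rest of chr19 and the other chromosomes, with boxes from the lower to the upper quartile, the median as a line, whiskers to the lowest and the highest peak and points for the chr19 peaks. The medians are 4.12, 3.66, 3.60 and 3.68.

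How reads with several possible places in the genome were treated is not given in the sources used here, and its part in the counts of these arrays was not tested.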

How the data were processed

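RbFox1 was profiled by eCLIP in T-REx-293 lines that carry a TrkB-BAC minigene. The 2 WT +Dox and 2 WT No Dox libraries gave the human list. The 2 libraries of the cluster deletion line, 6 input libraries whose condition the labels leave unclear and both minigene lists were not used here. The authors removed UMIs with umi_tools and adapters with cutadapt, discarded reads of repeats and rRNA, used STAR for alignment to hg38 plus the minigene sequence, collapsed duplicates and called peaks with CLIPper. The deposited −log10 p-value (Fisher's exact or Yates' chi-square test) and the deposited log2 fold enrichment of +Dox over No Dox are values the authors merged over replicates, with 0 columns of single libraries. Merging settings are not given in the sources used here.

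Positions were converted to count from 1. A peak belongs to a region or window by its midpoint. Tables were read with Python 3.11.15, pandas 2.3.3, numpy 2.4.6 and scipy 1.17.1, and plots drawn with matplotlib 3.10.9. Grouping was tested on simulated data. Named items are the 10 most enriched chr19 peaks, the 10 groups with the most peaks, the 5 with the most in each zinc finger region (ties in order of position), the 5 fullest and all empty windows; other positions were chosen after their values were seen. The members and lists were chosen with earlier results of these data known. Genes and motifs were not analysed here. The alternatives were a stricter threshold, joined abutting peaks, peaks at the highest −log10 p left out, gaps of 100 and 1000 nt, region borders moved inward by 0.5 Mb and division by occupied windows. Counting each group once was added after seeing the data.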

Additional observations from a re-analysis of the deposited data

How the results depend on the processing

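The list was recomputed under each alternative, giving 61 values. Of these, 33 stayed within 1.5 times the reported value (counts) or within its 95% interval (shares and medians). The intervals count each peak as an independent unit, which neighbouring peaks are not. Staying inside them is thus a description and no measure of how stable a value is. The stricter threshold moved most. It left 349 chr19 peaks in 132 groups, 6.01 per Mb, with 64.8% on the + strand and 51.9% in groups of at least 4. The median log2 fold enrichment was then 4.44 on chr19, 4.43 on the other chromosomes, 4.44 over the 36 peaks of the pericentromeric region, 4.44 over the 20 peaks of the terminal region and 4.44 on the rest of chr19. This threshold selects on the enrichment itself, so these medians do not compare the regions. With abutting peaks joined, chr19 held 815 peaks, or 14.0 per Mb and 4.34% of the list, its median width was 102 nt, 33.1% of its peaks lay in groups of at least 4 and 30 peaks lay in the pericentromeric region. The medians were then 3.56 on chr19, 3.63 elsewhere and 3.54 on the rest of chr19. A gap of 100 nt gave 541 groups and put 44.2% of chr19 peaks into groups of 4 or more. Moving the borders inward by 0.5 Mb left 21 peaks in the pericentromeric region, 5.25 per Mb, with a median of 4.49, and 62 in the terminal region, 11.1 per Mb. With each group counted once, chosen after seeing the data, chr19 had 4.13% of the list, 10 and 37 groups lay in the pericentromeric and the terminal region, and the medians were 3.51 on chr19, 3.58 elsewhere and 3.51 on the rest of chr19. Leaving out peaks at a −log10 p of 400, a gap of 1000 nt and division by occupied windows moved none of the values recomputed under them. For counts this says little. Leaving out 59 of 1183 peaks could not move the chr19 count by 1.5 times. Division by occupied windows gave 23.2 peaks per window of 1 Mb, beside 20.3 per Mb of span.

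No paired analysis was possible because the list has 1 merged value per peak, and for the same reason no library was left out in turn. The alternatives that need human gene models or peak sequences were not run. Depth is unknown, so how many weaker chr19 sites fall short of the list cannot be given.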

Other observations

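Narrow peaks were found inside the dense groups of chr19. A width of at most 20 nt was seen for 46 chr19 peaks, 3.89% of its peaks against 1.51% elsewhere, with a median log2 fold enrichment of 3.68. Of these, 43 lie in groups of at least 4 peaks, which hold 61.6% of all chr19 peaks. Groups of at least 10 hold 19 of the narrow peaks, and 38 abut another peak on either side. For these last 2 counts the share over all chr19 peaks is not given here. The shares that follow count a peak only if it begins right after another. Over all widths, 368 chr19 peaks (31.1%) begin at the base after another peak of their strand, against 24.1% elsewhere. The share was 47.4% in the pericentromeric region and 11.5% in the terminal region.

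Peaks on opposite strands were rarely close to each other. On chr19, 2 pairs of groups on opposite strands lay within 1000 nt, and both involve the 6 peaks on the + strand from 41318954 to 41319531, with a median log2 fold enrichment of 4.03. One single peak on the − strand, at 41319319 to 41319357, overlaps this group over 39 nt, and the other, at 41318641 to 41318711, lies 242 nt before it, both with a log2 fold enrichment of 3.30.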
